A study of Mus musculus with 6 samples.

Results

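The genes followed here, chosen by name, are the matrix metalloproteinases (MMPs) Mmp8, Mmp9, Mmp12, Mmp13, Mmp14 and Mmp19, the tissue inhibitors of metalloproteinases Timp1, Timp2 and Timp3, and the membrane protease Adam8. They are 10 of the 24062 genes in the count tables, and all 10 were found there. RNA was sequenced from RAW264.7, a mouse macrophage-like line derived from a leukaemia virus-induced tumour, although the labels also give bone marrow as the tissue. M0 macrophages were left unpolarized, M1 macrophages were treated for 24 h with LPS at 100 ng/mL and IFN-γ at 20 ng/mL, and M2 macrophages for 24 h with IL-4 at 20 ng/mL. RM0, RM1 and RM2 macrophages were the corresponding states given 10 Gy of gamma radiation and kept for 24 h afterwards. Each of the 6 conditions is 1 library made from the pooled RNA of 5 wells, so no condition has a replicate, and the series holds 1 cell line.

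MMPs are zinc-dependent proteases that are made as inactive proenzymes and, once activated, cut collagens, elastin, gelatin and many signalling proteins. TIMPs bind the active site of the MMPs and block it, so the amount of free activity depends on protease and inhibitor together. Macrophages are a known source of both in inflamed tissue. RNA counts measure neither the activation of a proenzyme nor secretion.

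The tables give raw read counts per gene. Library totals ran from 17894937 to 18870516 counts. On these totals 3 counts, the most that a count of 0 allows, were worth 0.159 to 0.168 CPM, the usual depth-scaled count. Levels are CPM on library sizes scaled by the TMM method, whose factors were 0.8004 in M1, 0.8836 in RM1 and between 1.05 and 1.134 in the other libraries. On that scale 3 counts were worth from 0.148 CPM in M2 to 0.203 CPM in M1. A log2 fold change between 2 libraries used a prior count of 2, and a call needed a 2-fold difference and 10 or more counts in either library. Brackets after such a change give the 95% Clopper-Pearson interval of the ratio, which covers counting error only. Effects over all 6 libraries were tested by edgeR's quasi-likelihood method in a model of polarization plus irradiation, for genes that reached 10 counts in 3 or more libraries. In that test the other factor's libraries stand in for replicates, with 2 residual degrees of freedom, and the effect is assumed to be equal in each of them.

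Among the listed macrophage markers 6 of 7 were found, and their summed level ran from 16860 to 32780 CPM. Lyz2 carried most of it, from 13480 CPM in M1 to 29610 CPM in RM0. These markers did not move together. Csf1r was 668.5 CPM in M0 and 328.4 CPM in M1, while Fcgr1 was 49.3 CPM in M0 and 351.7 CPM in M1. The M1 markers summed to 12410 CPM in M1 and 8729 CPM in RM1, against 993.9 to 1873 CPM in the other 4 libraries. Nos2 carried most of this sum, at 11490 CPM in M1, while Tnf was 480 CPM in RM1 and 518 CPM in RM0. The M2 markers were low in every library. Their sum was 2.67 CPM in M0 and 6.95 CPM in M2, and 3.01 CPM in RM0 and 11.69 CPM in RM2, and Clec10a carried most of it in these 4 libraries, with 42 counts in M0, 101 in M2, 51 in RM0 and 128 in RM2. Retnla and Chil3 had 0 counts in all 6 libraries, and Arg1 had 0 in M0 but 31 in M2 and 89 in RM2. Mrc1 was highest in the LPS and IFN-γ libraries, with 50 counts in M1 and 26 in RM1. It had 10 counts in M0, 6 in M2, 5 in RM0 and 12 in RM2. The M2 marker sum was 4.19 CPM in M1 and 2.28 CPM in RM1.

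Polarization with LPS and IFN-γ was accompanied by differences in most of the detected members, in opposite directions. Timp1, Mmp13, Mmp12 and Mmp19 were higher in M1 and RM1 than in M0 and RM0, while Mmp9 and Timp2 were lower. In the quasi-likelihood test 6 of the 7 members tested passed an adjusted p of 0.05, 4 higher and 2 lower, where 47.6% of all 11574 genes tested passed in either direction, 2692 higher and 2817 lower. Mmp13 and Mmp12 met the count filter of this test only through polarized libraries, where they were higher. With library totals in place of TMM the members split 4 to 3, with Adam8 lower, and all genes 1091 to 4750, around a median of -0.36. Irradiation passed for 0 of the 7 members, with 0.475% of all genes passing. The IL-4 effect also passed for 0 of the 7, with 0.19% of all genes passing. The plot of member levels shows the counts behind these calls.

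**Figure D1:**
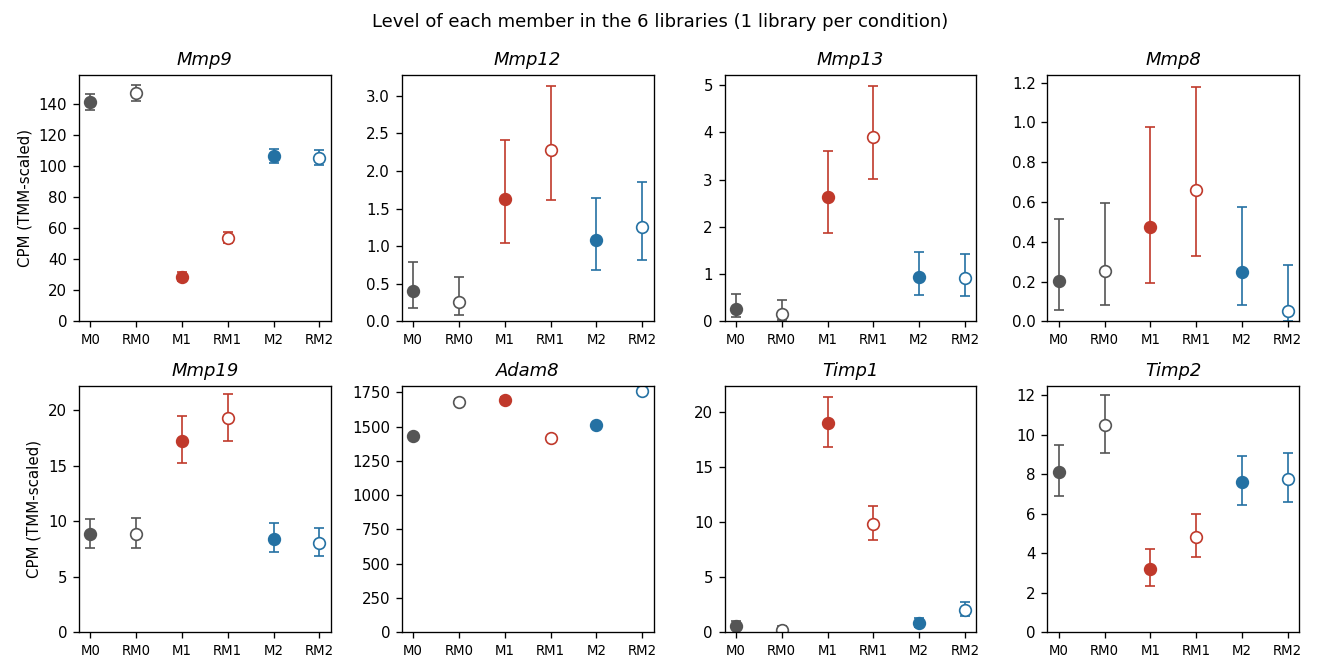
Levels of the 8 members with at least 10 counts in 1 library, in TMM-scaled CPM, in each of the 6 libraries (filled points not irradiated, open points irradiated, bars the 95% interval of the count). The M1 and RM1 libraries hold the lowest Mmp9 and Timp2 and the highest Timp1, Mmp12, Mmp13 and Mmp19 levels, and Adam8 stays between 1416 and 1762 CPM.

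The members differed widely in level. Adam8, the only ADAM among them, carried 92.54% of all counts of the 10 genes and ranked 50th by mean CPM among 15925 genes with a count. Mmp9 carried 5.94% and ranked 1982nd. Per kilobase of transcript, Adam8 reached 456.8 to 568.3 CPM per kilobase and Mmp9 9.1 to 46.4 CPM per kilobase. The same measure ran from 0.231 to 21.4 for Timp1, from 2.37 to 5.66 for Mmp19 and from 0.0573 to 1.46 for Mmp13. Mmp12 reached at most 0.632 and Mmp8 at most 0.272 CPM per kilobase. The listed span of Timp2 covers only 451 of the 3709 exonic bases of its transcript, and that of Adam8 covers 51.1% of its exonic bases, so their levels per kilobase are uncertain. Where within these genes the reads were counted is not known.

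Mmp9, gelatinase B, degrades denatured collagen and basement membrane collagen. The gene lies at chr2:164948219-164955849 (GRCm38, plus strand) and its matched transcript has 13 exons. It had 2807 counts in M0 with 2885 in RM0, 427 in M1 with 895 in RM1, and 2166 in M2 with 2095 in RM2. Both LPS and IFN-γ libraries lie below the other 4, a split whose share over all genes was not counted. In CPM the level was 28.9 in M1 against 141.5 in M0, a log2 fold change of -2.29 (-2.44 to -2.15). Between the irradiated libraries it was 53.7 in RM1 against 147.2 in RM0, a log2 fold change of -1.45 (-1.57 to -1.35). Over all 6 libraries Mmp9 fell by 1.84 on the log2 scale with M1 polarization (SE 0.20, edgeR quasi-likelihood adjusted p = 4.65e-05). The M2 and RM2 libraries lay between, at 106.8 and 105.6 CPM, and differed from each other by a log2 fold change of -0.02 (-0.10 to 0.07), which is within counting error.

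Timp2, which inhibits MMPs and also takes part in the activation of MMP2 at the cell surface, was lowest in the same 2 libraries as Mmp9. Its counts were 161 in M0 with 205 in RM0, 47 in M1 with 80 in RM1, and 154 in M2 with 154 in RM2. The share of all genes with their M1 and RM1 counts below the rest was not counted. The log2 fold change was -1.32 (-1.85 to -0.88) in M1 against M0 and -1.11 (-1.52 to -0.75) in RM1 against RM0, which was -0.96 and no longer called with a GC trend removed. Timp2 fell by 1.22 on the log2 scale with M1 polarization (SE 0.22, edgeR quasi-likelihood adjusted p = 0.00112). The counts may stand for its first exon alone, since the listed span chr11:118354961-118355411 (minus strand) holds 0.825% of the annotated gene.

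Timp1, a secreted inhibitor of many MMPs that inflammatory signals are known to induce, showed the widest range of the 8 members with at least 10 counts in 1 library. It lies at chrX:20870166-20874737 on the plus strand, in 6 exons. Its counts were 11 in M0 with 4 in RM0, 280 in M1 with 163 in RM1, and 16 in M2 with 40 in RM2. The 2 LPS and IFN-γ libraries stand far above the other 4, and the highest level was 92.8 times the lowest in CPM. The CPM ratio was 34.1 in M1 against M0, a log2 fold change of 4.84 (4.23 to 6.11). In RM1 against RM0 it was 47.9, a log2 fold change of 4.98 (4.20 to 7.47). Timp1 rose by 5.19 on the log2 scale with M1 polarization (SE 0.51, edgeR quasi-likelihood adjusted p = 2.61e-05).

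Mmp13, collagenase-3, cleaves fibrillar collagen, and Mmp12, macrophage elastase, cleaves elastin. Both genes lie on the plus strand of chromosome 9, Mmp13 at chr9:7272514-7283333 and Mmp12 at chr9:7347374-7360461, each in 10 exons, within the MMP gene cluster that also holds Mmp8. Mmp13 had 5 counts in M0 with 3 in RM0, 39 in M1 with 65 in RM1, and 19 in M2 with 18 in RM2. Mmp12 had 8 counts in M0 with 5 in RM0, 24 in M1 with 38 in RM1, and 22 in M2 with 25 in RM2. For both genes the unpolarized pair is the lowest and the RM1 library the highest. Mmp13 was 10.5 times higher in M1 than in M0 by CPM, with a log2 fold change of 2.93 (2.04 to 5.09). Against the 3 counts of RM0 the RM1 level was 25.5 times higher, with a log2 fold change of 3.94 and a counting interval from 3.06 to 6.98. Mmp12 had a log2 fold change of 1.76 (0.81 to 3.37) in M1 against M0 and of 2.72 (1.81 to 4.86) in RM1 against RM0. The intervals of both genes are wide because the counts are low. Mmp13 rose by 3.96 (SE 0.46, edgeR quasi-likelihood adjusted p = 7.27e-05) and Mmp12 rose by 2.54 (SE 0.45, edgeR quasi-likelihood adjusted p = 0.001) on the log2 scale with M1 polarization. Both genes entered this test only through polarized libraries, where they were higher, since neither reached 10 counts in M0 or RM0. Neither gene passed 4 CPM in any library.

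The 250 bases before the listed start of these 2 genes, and of Timp1 for comparison, are shown because the 3 genes rose together with M1 polarization. They come from RefSeq promoters on GRCm38.p6, where 8 of the 10 members were matched, all but Mmp9 and Mmp19, and are printed 5′ to 3′ on the plus strand. Capitals mark matches to the AP-1 motif TGANTCA, the site of Fos and Jun dimers, searched on both strands.
Mmp13, chr9:7272264-7272513: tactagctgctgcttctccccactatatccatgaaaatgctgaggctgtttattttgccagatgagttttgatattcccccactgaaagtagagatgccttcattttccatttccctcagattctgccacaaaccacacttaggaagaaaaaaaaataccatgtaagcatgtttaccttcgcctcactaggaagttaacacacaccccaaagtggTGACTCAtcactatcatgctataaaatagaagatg
Mmp12, chr9:7347124-7347373: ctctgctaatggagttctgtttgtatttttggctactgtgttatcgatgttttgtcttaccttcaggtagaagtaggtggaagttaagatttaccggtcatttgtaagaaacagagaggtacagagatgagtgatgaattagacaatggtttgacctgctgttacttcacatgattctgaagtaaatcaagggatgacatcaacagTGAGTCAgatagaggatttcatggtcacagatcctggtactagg
Timp1, chrX:20869916-20870165: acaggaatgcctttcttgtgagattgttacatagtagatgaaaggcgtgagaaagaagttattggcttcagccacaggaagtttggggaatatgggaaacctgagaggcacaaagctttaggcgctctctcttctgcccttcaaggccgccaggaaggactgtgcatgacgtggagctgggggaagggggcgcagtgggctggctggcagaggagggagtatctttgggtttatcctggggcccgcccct
The AP-1 match of Mmp13 lies at -35 to -29 from the start and that of Mmp12 at -44 to -38, both on the plus strand. Mmp13 also holds the letters TATAAA at -16 to -11, apart from the AP-1 match. A second RefSeq start of Mmp12, 2977 bases upstream, has no match in its window. The windows of the other members matched hold no match to TGANTCA, to TTCNNNGAA (the STAT motif) or to TATAAA. Mmp9 and Mmp19 had no window and were not searched. Among 32817 promoter windows of the same length 6.75% hold TGANTCA, 7.01% TTCNNNGAA and 12.37% TATAAA on either strand. A match is a description of letters, and none was tested for binding.

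Mmp19, an MMP with broad activity on basement membrane proteins, had 175 counts in M0 with 173 in RM0, 255 in M1 with 321 in RM1, and 171 in M2 with 160 in RM2. The 2 LPS and IFN-γ libraries were the highest, and the other 4 lay between 8.06 and 8.83 CPM. Its log2 fold change was 0.96 (0.68 to 1.25) in M1 against M0 and 1.12 (0.85 to 1.4) in RM1 against RM0, which library totals in place of TMM lowered to 0.87, under 2-fold. The gene lies at chr10:128790910-128800824 on the plus strand, in 9 exons. Mmp19 rose by 1.05 on the log2 scale with M1 polarization (SE 0.16, edgeR quasi-likelihood adjusted p = 0.000502). Up to 789 exonic bases of the gene overlap Tmem198b on the opposite strand, which had 394 to 508 counts. Whether counting used strand is not stated, so reads of the 2 genes may not be separable.

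Adam8, a membrane metalloprotease that sheds cell surface proteins of leukocytes, had the most counts and the smallest range. It is listed at chr7:139986893-139992509 on the minus strand, and its matched transcript has 24 exons. Its counts were 28337 in M0 with 32980 in RM0, 25024 in M1 with 23609 in RM1, and 30608 in M2 with 34950 in RM2. The highest CPM was 1.24 times the lowest. The log2 fold change was 0.24 (0.22 to 0.27) in M1 against M0 and -0.25 (-0.27 to -0.23) in RM1 against RM0. The fitted change with M1 polarization, which averages these opposite values, was 0.00 (SE 0.17, edgeR quasi-likelihood adjusted p = 0.986). This depends on the scaling. With library totals in place of TMM the fitted change was -0.35 (edgeR quasi-likelihood adjusted p = 0.0352), and M1 against M0 turned from 0.24 to -0.20. Scaling by totals put the median of all genes at -0.46 in that comparison.

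The remaining members were at or near the detection limit. Mmp8, neutrophil collagenase, at chr9:7558429-7568486, had 4 counts in M0 with 5 in RM0, 7 in M1 with 11 in RM1, and 5 in M2 with 1 in RM2. Mmp14, at chr14:54431604-54441258, the membrane-type MMP that activates MMP2, had 1 count in M0 with 0 in RM0, 2 in M1 with 2 in RM1, and 0 in M2 with 1 in RM2. Timp3, at chr10:86300412-86349505 and known to bind the extracellular matrix, had 0 counts in all 6 libraries, which allows up to 0.203 TMM-scaled CPM in a library. No fold is given for the last 2. A level under this limit was not detectable at this depth, which does not show that the genes are silent.

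Counted as calls between single libraries, 5 of the 7 members tested were at least 2-fold apart in M1 against M0, where 22.7% of 11778 genes were. Mmp12, Mmp13 and Timp1 were higher, and Mmp9 and Timp2 were lower. In RM1 against RM0, 7 of the 8 members tested were called, with 14% of 11713 genes called. These were the same 5, in the same directions, with Mmp19 and Mmp8 higher. The Mmp8 call rests on 11 against 5 counts, and its interval from -0.27 to 3.25 includes no difference. Mmp12 and Mmp13 in both comparisons, and Mmp8 and Timp1 in the second, reached 10 counts only in the polarized library, so they entered the count through the library where they were higher. The median log2 fold change of the members tested was 0.96 and 1.10 in these comparisons, and -0.03 and -0.01 over all genes tested.

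In M2 against M0, 2 of the 7 members tested were called, both higher, where 1.44% of 11762 genes were called. Mmp13 had a log2 fold change of 1.54 (0.42 to 3.67) and Mmp12 one of 1.22 (0.20 to 2.80). In RM2 against RM0, 3 of 7 were called with 2.61% of 11748 genes, and again all were higher. Mmp13 had a log2 fold change of 1.96 (0.79 to 4.97), Mmp12 one of 1.91 (0.89 to 4.05) and Timp1 one of 2.77 (1.84 to 5.25). Every one of these calls rests on 40 counts or fewer, and each gene reached 10 counts only in the IL-4 library of its pair. Timp1 was 0.44 in M2 against M0, with an interval from -0.69 to 1.76 that includes no difference. Mmp9 was lower in both, at -0.41 (-0.49 to -0.32) and -0.48 (-0.56 to -0.40), and was not called.

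**Figure D2:**
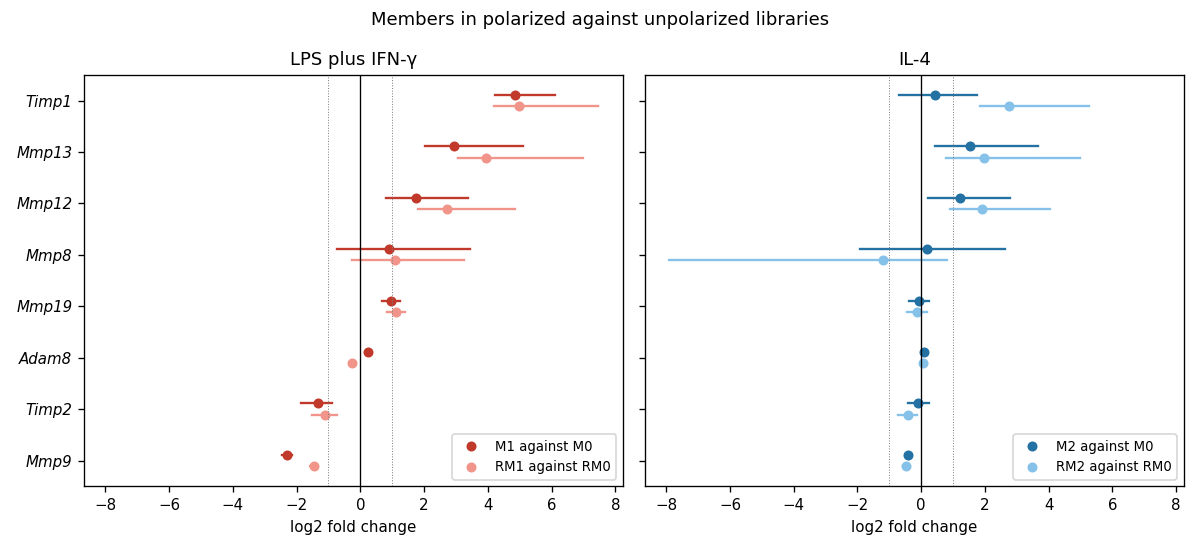
Log2 fold change of each member except Mmp14 and Timp3 in LPS plus IFN-γ libraries (left) and IL-4 libraries (right). Each is set against the unpolarized library of the same irradiation status. Dotted lines mark 2-fold and bars the 95% counting interval. Timp1, Mmp13 and Mmp12 lie above 0 on both sides, and Mmp9 below 0 on both. The intervals of Mmp8 throughout, of Mmp19 on the IL-4 side, and of Timp1 and Timp2 in M2 against M0 include 0.

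For IL-4 the quasi-likelihood test with all 6 libraries passed none of the 7 members, although 4 had an unadjusted p under 0.05, and DESeq2 gave the same 0 and 4. The share of all genes under that unadjusted p was not counted, so the 4 of 7 has no reference. These 4 were Mmp13 (log2 change 2.15, SE 0.54, edgeR quasi-likelihood adjusted p = 0.252), Mmp12 (1.80, SE 0.47, adjusted p = 0.264), Timp1 (1.91, SE 0.65, adjusted p = 0.452) and Mmp9 (-0.44, SE 0.19, adjusted p = 0.472). The fitted Timp1 value joins 0.44 in M2 against M0 and 2.77 in RM2 against RM0. Here and in the smaller fit below, Mmp13 and Mmp12 met the count filter only through polarized libraries, where they were higher. The calls depend on the LPS and IFN-γ libraries. Fitted without M1 and RM1, with 1 residual degree of freedom, all 4 passed, at adjusted p = 0.00308, 0.00317, 0.00112 and 0.00026 in the same edgeR test and in the same order, and 1432 genes passed in all.

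Irradiation was compared within each state. Whether the libraries without irradiation were also kept for the further 24 h is not stated, so radiation and time in culture cannot be told apart. In RM0 against M0, 1 of the 5 members tested was called, Timp1, which was lower with 4 against 11 counts, where 1.54% of 11688 genes were called. Its log2 fold change of -1.09 has a counting interval from -3.55 to 0.31, which includes no difference. In RM1 against M1, 0 of the 8 members tested were called, where 5.34% of 11443 genes were. In RM2 against M2, 1 of the 7 members tested was called, Timp1, which was higher with 40 against 16 counts, where 1.97% of 11801 genes were called. That log2 fold change was 1.24 (0.48 to 2.29).

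In the LPS and IFN-γ state 3 members besides Adam8 had a change with irradiation whose counting interval leaves out 0, although none reached 2-fold. The share of all genes with such an interval was not counted, so this number has no reference. The interval covers counting error only. Mmp9 was higher in RM1 than in M1, at 53.7 against 28.9 CPM, with a log2 fold change of 0.89 (0.73 to 1.06). It passed 2-fold when library totals were used in place of TMM, at 1.03, and when a trend with GC content was removed, at 1.05. Timp1 was lower in RM1 than in M1, at 9.78 against 18.9 CPM, with a log2 fold change of -0.95 (-1.24 to -0.67). Timp2 had a log2 fold change of 0.58 (0.057 to 1.15). It was also higher in RM0 than in M0, by 0.36 (0.061 to 0.67), and its change in RM2 against M2 was 0.03 (-0.30 to 0.36). In M0 and M2 Mmp9 differed little with irradiation, by 0.06 (-0.018 to 0.13) and -0.02 (-0.10 to 0.07).

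Across the 3 states the fitted irradiation effect did not pass for any member. The fitted log2 change was 0.29 for Mmp9 (SE 0.16, edgeR quasi-likelihood adjusted p = 0.409) and 0.30 for Timp2 (SE 0.17, adjusted p = 0.432). For Timp1 it was -0.38 (SE 0.38, adjusted p = 0.661), with directions that differed between states. With all 6 libraries no member had an unadjusted p under 0.05 in edgeR or in DESeq2. Without the M2 and RM2 libraries the Timp1 value was -1.02 (unadjusted p = 0.0038, edgeR adjusted p = 0.242), and without M1 and RM1 it was 0.64 (adjusted p = 0.509). Mmp9 and Adam8 likewise had an unadjusted p under 0.05 in some of these smaller fits, and neither passed. For Mmp9 the edgeR quasi-likelihood adjusted p was 0.517 without M2 and RM2 and 0.106 without M0 and RM0, and for Adam8 the edgeR quasi-likelihood adjusted p was 0.113 without M1 and RM1.

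**Figure D3:**
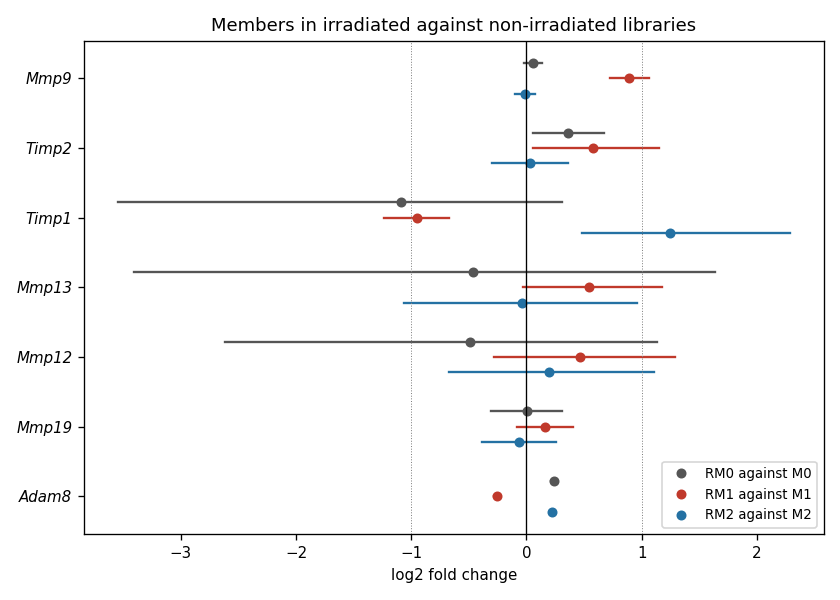
Log2 fold change of Mmp9, Timp2, Timp1, Mmp13, Mmp12, Mmp19 and Adam8 in each irradiated library against its non-irradiated counterpart. Dotted lines mark 2-fold and bars the 95% counting interval. Mmp8, Mmp14 and Timp3 are not drawn. Timp1 lies at -1.09, -0.95 and 1.24 in the M0, M1 and M2 states, and Mmp9 lies apart from 0 in the M1 state with 0.89.

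Mmp9 and Timp1 are a protease and an inhibitor that bind each other, and their ratio of counts within a library does not depend on scaling. The pair was chosen after its values were seen. There were 255 Mmp9 counts per Timp1 count in M0 with 721 in RM0, 1.52 in M1 with 5.49 in RM1, and 135 in M2 with 52.4 in RM2. The ratio of counts depends on the lengths of the 2 transcripts, and per kilobase it was 71 in M0 and 0.424 in M1. The ratio was lowest in the LPS and IFN-γ libraries at either irradiation status. In M2 against M0 it was 0.531 times as high, with an interval from 0.222 to 1.22 that includes no difference. In RM2 against RM0 it was 13.8 times lower (4.96 to 53.1), which rests on 4 Timp1 counts in RM0. The ratio was 167 times lower in M1 than in M0 (90.9 to 341) and 131 times lower in RM1 than in RM0 (50.1 to 489). With irradiation it was 3.6 times higher in RM1 than in M1 (2.86 to 4.54) and 2.58 times lower in RM2 than in M2 (1.41 to 4.96). In RM0 against M0 the ratio was 2.83 times higher, with an interval from 0.836 to 12.2 that includes no difference. All these intervals cover counting error only.

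**Figure D4:**
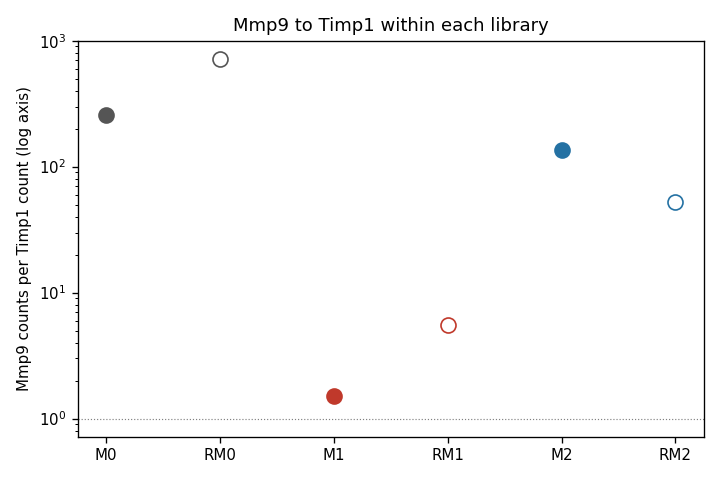
Mmp9 counts per Timp1 count in each library on a log axis (1 point per library, open where irradiated). M1 and RM1 lie at 1.52 and 5.49, and the other 4 libraries lie between 52.4 and 721.

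Another 67 genes of matrix breakdown were followed as lists, and all were found. Of these, 23 had 0 counts in all libraries, 31 had 3 or fewer in every library, and 30 reached 10 counts in at least 1 library. With M1 polarization 17 of the 26 tested passed the quasi-likelihood test, 13 higher and 4 lower, beside 47.6% of all genes. Their median log2 change was 0.40, and that of all genes -0.02. With library totals the split was 11 higher and 8 lower, Mmp25 and Ctsz no longer passed, and none of the 17 changed sign. Irradiation passed for 0 of 26, with 5 at an unadjusted p under 0.05. DESeq2 called 114 genes with irradiation and 2 of them were on the lists, Lrp1, a receptor that clears MMPs, and Itgav, the integrin αV subunit. Their edgeR values were 0.59 (quasi-likelihood adjusted p = 0.0582) and 0.59 (adjusted p = 0.0768). The IL-4 effect also passed for 0 of 26 in edgeR, with 3 at an unadjusted p under 0.05, and DESeq2 called 41 genes, of which 1, Itgav, was on the lists. The shares of all genes at an unadjusted p under 0.05 were not counted for either effect.

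Of the other MMPs only Mmp3, Mmp23, Mmp25 and Mmp28 reached 10 counts in a library. The membrane-anchored Mmp25 had 17 counts in M0 with 9 in RM0, 27 in M1 with 30 in RM1, and 11 in M2 with 14 in RM2, and rose by 1.46 on the log2 scale with M1 polarization (SE 0.41, edgeR quasi-likelihood adjusted p = 0.0137). DESeq2 did not call it. None of the 7 other MMP inhibitors, Timp4 and the membrane inhibitor Reck included, had more than 3 counts in any library. Timp1 and Timp2 were thus the only inhibitors on the lists with more than 3 counts.

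Among 4 ADAMs tested, Adam9 rose by 0.74 and Adam17, the TNF sheddase, fell by 0.69 on the log2 scale with M1 polarization. The aggrecanases Adamts1 and Adamts4 rose by 1.12 and 1.71, and Adamts10 fell by 0.71, although DESeq2 called only the first 2. Adamts4 had 18 counts in M0 with 19 in RM0, 33 in M1 with 67 in RM1, and 20 in M2 with 20 in RM2, highest in RM1 as Mmp13 was.

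Of 9 activators and partners tested, 5 passed with M1 polarization, a share near the 47.6% of all genes. Lcn2, lipocalin-2, which binds MMP9 and protects it from degradation, rose by 2.58 (SE 0.15, edgeR quasi-likelihood adjusted p = 7.67e-07), opposite to Mmp9 itself. Its counts were 7173 in M0 with 5777 in RM0, 31387 in M1 with 29798 in RM1, and 7561 in M2 with 5487 in RM2. Furin, a convertase that activates membrane-type MMPs, rose by 1.16, Itgav by 0.94 and Bsg, an inducer of MMPs in neighbouring cells, by 0.73. Plau, the urokinase that generates plasmin, fell by 0.50. Of 6 cysteine cathepsins, lysosomal proteases that also degrade matrix, Ctsl rose by 1.53, Ctss by 1.17, Ctsb by 0.86 and Ctsz by 0.55, and Ctsk fell by 0.87. Of the matrix substrates, the laminin chain Lamc1 rose by 1.01, and Spp1, osteopontin, had a fitted change of 0.01.

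**Figure D5:**
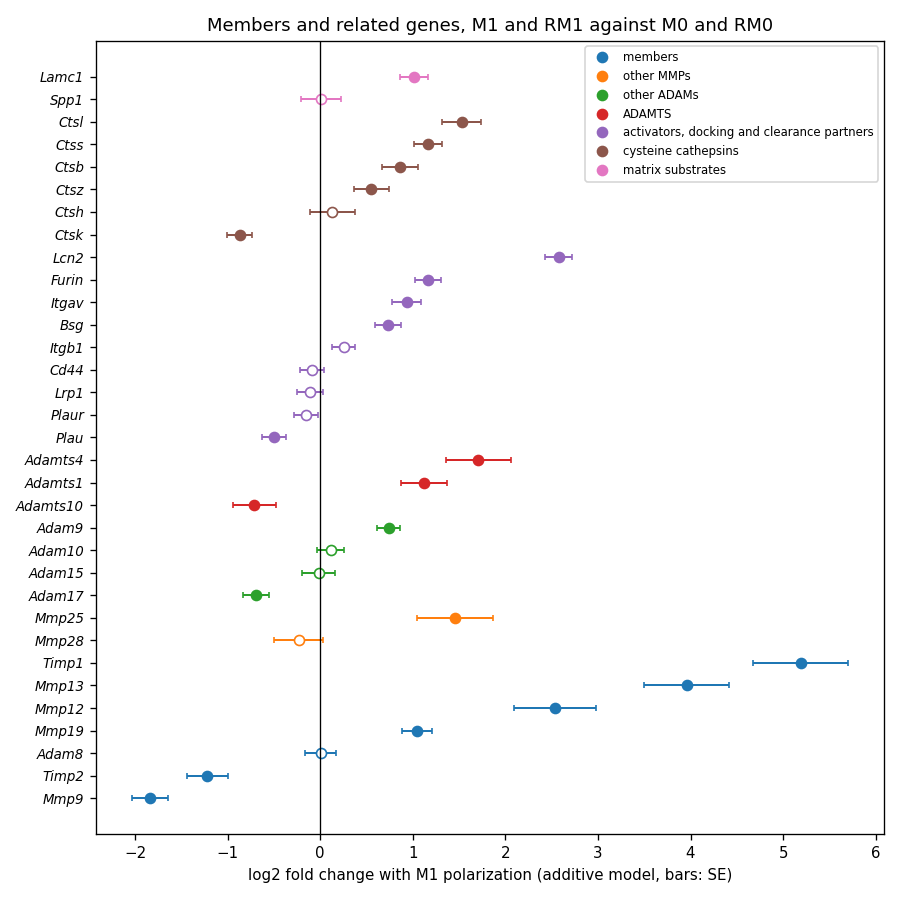
Fitted log2 change with M1 polarization for the 7 members and the 26 related genes tested, grouped by list, with bars for the SE and filled points for an edgeR quasi-likelihood adjusted p under 0.05. Timp1 has the highest value at 5.19 and Mmp9 the lowest at -1.84.

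The patterns most like those of the 4 members with a mean of at least 100 counts were sought among 9412 genes with such a mean. Likeness was the root mean square distance of log2 CPM, centred per gene, over the 6 libraries. Closest to Mmp9 were Hdhd3 (0.118), C130050O18Rik (0.127) and Fosl1 (0.152), and 44 genes lay within 0.25. Closest to Timp2 were Fam83h (0.081), Gas6 (0.096) and Plec (0.097), with 422 genes within that distance. Tdrd7 (0.029), Stradb (0.066) and Ddx58 (0.074) were closest to Mmp19, with 687 genes within 0.25. Adam8, whose level varied least, had 3869 genes within 0.25, led by Micall1 (0.039), Cacna1a (0.040) and Cyb561d1 (0.044). The distance to Mmp9 is thus small for few genes.

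Mmp8 and Mmp9 are also stored by neutrophils, and Timp1 and Mmp13 are made by fibroblasts, so markers of both were read in the same libraries. Of 4 neutrophil markers found, S100a8 carried the sum, which was 2196 CPM in M1 and 3074 CPM in RM1 against 140.5 to 340.4 CPM elsewhere. The defining markers Elane and Mpo had at most 1 and 3 counts, and S100a9 at most 19. Of 5 fibroblast markers Dcn carried the sum, which was 42.7 CPM in M1 and 43.8 CPM in RM1 against 5.92 to 9.32 CPM elsewhere, while Col1a2 and Col3a1 had 0 counts in every library. Osteoclast markers summed to 134.9 to 183.4 CPM and endothelial markers to at most 2.82 CPM. Within the osteoclast sum Acp5 was 30.0 CPM in M0 and 81.8 CPM in M1. Ctsk went the other way, with 114.4 CPM in M0 and 55.4 CPM in M1, as did Dcstamp, with 27.1 and 8.7 CPM. The part of S100a8 and Dcn in the member values was not tested. In such bulk libraries fewer cells with a transcript and less RNA per cell cannot be told apart.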

How the data were processed

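RNA-seq counts of 6 libraries, 1 per condition, were used. The authors trimmed, aligned and counted the reads, and the deposited values are raw counts per RefSeq gene, without normalization. The submitters' processing notes list Trimmomatic 0.36, HISAT2 2.2.1, HTSeq 0.11.3 and the mm10 build. The strand setting of the counting is not given in the sources used here. Of the gene symbols 27 read as dates, and 8137 genes had 0 counts throughout. Samples were grouped by their titles.

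Counts were scaled by TMM in edgeR 4.0.16 (R 4.3.3), with factors from genes that reached 10 counts in 3 or more libraries and full library sizes. Fold changes used a prior count of 2, and no fold was given where neither library passed 3 counts. Each 2-library call has no test. The additive model was fitted with glmQLFit and glmQLFTest on 11574 genes (common coefficient of variation 0.107) with Benjamini-Hochberg adjustment at 0.05 over all genes, and an SE is the log2 change over the root of F. On simulated data with 200 genes changed by a log2 change of 1, the test recovered 98% for irradiation, with 5 false calls, and 92% for M1 polarization, with 15. The 2-fold call, whose threshold equals that change, recovered 47% in RM0 against M0, with 48 false calls. The simulated effects were equal in every state, and all genes had a coefficient of variation near the fitted one. Far fewer genes changed in the simulation than passed with M1 polarization here. These rates therefore do not give the power of the test in these libraries.

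The members and gene lists were chosen with earlier results of these data known. All 10 members are named, together with every list gene called at 2-fold with at least 50 counts and the 3 genes closest in pattern to each member with a mean of at least 100 counts. List genes outside this rule (Mmp25, Adam9, Adam17, Adamts10, Bsg, Plau, Ctsz, Lrp1, Spp1 and those named beside small counts) and the ratio of Mmp9 to Timp1 were chosen after their values were seen. Exon models came from GENCODE M21 and promoter sequences from RefSeq (GRCm38.p6). Alternatives were DESeq2 1.42.0, library totals, a prior count of 0.25, other count filters, a 4-fold threshold, edgeR's exact test with an assumed coefficient of variation, omitted state pairs and model terms, and, chosen after seeing the data, removal of a GC trend. Fits with a state pair omitted required 10 counts in fewer libraries. Python 3.11.15, pandas 2.3.3, numpy 2.4.6, scipy 1.17.1 and matplotlib 3.10.9 were used for the rest.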

Additional observations from a re-analysis of the deposited data

Results flagged for a closer look

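Timp1 moved in opposite directions with irradiation in the polarized states. Its log2 fold change was -0.95 in RM1 against M1, with 163 against 280 counts, and 1.24 in RM2 against M2, with 40 against 16 counts. Each state is 1 library pair and the difference between the pairs was not tested. Both signs were kept under the other scalings, the smaller prior count and the removal of the GC trend, from -0.96 to -0.80 in the first and from 1.21 to 1.34 in the second.

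Adam8 also moved in opposite directions, with 0.24 in RM0 against M0, -0.26 in RM1 against M1 and 0.22 in RM2 against M2. The difference was not tested. Its counts are so high that counting error is small, and the values were 0.19, -0.11 and 0.17 with library totals in place of TMM, and 0.20, -0.11 and 0.31 with the GC trend removed.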

How the results depend on the processing

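No paired analysis was possible because each condition is 1 library and the labels carry no replicate numbers. Among 2-fold calls in RM0 against M0, the call of Timp1 (1 member) went to 0 with at least 50 counts, at 4-fold, and in edgeR's exact test with the coefficient of variation set to 0.2 or 0.4. In RM2 against M2 it also went from 1 to 0 under these 4 settings, and to 2 without a filter on counts, with Mmp8 added. In RM1 against M1, 0 members became 1, Mmp9, with library totals and with the GC trend removed. The 5 calls of M1 against M0 fell to 3 with at least 50 counts or at 4-fold and to 1 at 0.4. The 7 of RM1 against RM0 fell to 3 at 4-fold, 4 at 0.2 and 2 at 0.4, and to 5 with library totals (without Mmp8 and Mmp19), with the GC trend removed (without Mmp8 and Timp2) and with at least 50 counts. The 2 of M2 against M0 fell to 0 with at least 50 counts, at 4-fold, and at 0.2 and 0.4. The 3 of RM2 against RM0 fell to 0 with at least 50 counts and at 0.4, and to 1, Timp1, at 4-fold and at 0.2. Of all genes the exact test called 3 in RM0 against M0, 6 in M2 against M0 and 0 in RM2 against M2 at 0.2, and 0 in each at 0.4, so almost no gene kept a call there. The filter and the 4-fold threshold remove calls by construction, and the cause of the other changes was not tested. The IL-4 effect passed for 4 members without the M1 and RM1 libraries and for 0 otherwise. In that smaller fit Mmp13 and Mmp12 met a looser count filter only through the IL-4 libraries. Under each alternative run the M1 effect passed for the same 6 members, joined by Adam8 with library totals. Irradiation passed for 0 members in every alternative run. Member and library pairs at 1 CPM or more numbered 33, or 34 with library totals. Scaling by totals put the median of all genes at -0.46 in M1 against M0, at -0.25 in RM1 against RM0 and at 0.13 in RM1 against M1. Low counts limit what can be said of Mmp8, Mmp12, Mmp13 and of Timp1 outside M1 and RM1.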
